A study of Rattus norvegicus with 4 samples.

Results

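The Clec genes of the rat are the members of the C-type lectin family whose symbol begins with Clec. They were read on 1-colour Agilent arrays of NR8383 cells, a rat alveolar macrophage line started from lung lavage of a normal rat. The family was taken as every non-control probe whose accession matched a symbol beginning with Clec in the gene table of RefSeq for the rat, assembly GRCr8. This gave 40 probes for 30 genes, of 45598 non-control probes and 16581 named genes on the array. The table lists 39 Clec symbols, and the 9 without a named probe here were Clec16a, Clec18a, Clec19a, Clec20a, Clec2gl1, Clec2h, Clec3b, Clec4g and the pseudogene Clec6a-ps1. All 4 arrays came from NR8383 cultures exposed for 4 h to NM403, a carbon nanotube of the multi-walled kind, at a dose of 0.8 cm²/cm². The labels give 20 passages for the cells, which stood 48 h in flasks, partly adherent and partly floating. The samples are described as biological replicates of 1 cell line. Cultures without nanotube belong to the design but were not analysed here. Hence no response to the nanotube could be tested and every value below is a description of exposed cells.

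C-type lectins share a protein fold that in its classical form binds sugars with the help of calcium, although many members bind proteins, lipids or crystals instead. On macrophages and dendritic cells they act as receptors for fungi, mycobacteria and dead cells. Activating members signal through the kinase Syk, either by a motif in their own tail or through the adaptor chains FcR gamma and DAP12, and on to NF-kB by way of the adaptor Card9. Inhibitory members carry a tail motif that recruits tyrosine phosphatases. The Clec2 members are mostly ligands for receptors of natural killer cells.

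Each level is a log2 signal minus the 75th percentile of those probes that were well above background on all 4 arrays. Fold ranges and the order of cultures within a gene hold for this scaling, and where another scaling moved them this is said. A level describes 1 probe across cultures and does not rank genes against each other. Detected means that the scanner software called a probe well above background, and a gene with several probes took the level of its brightest one. The share of non-control spots well above background ran from 45.9% on replicate 4 to 50.8% on replicate 1. With 4 arrays, precision is limited by their number. The 4 arrays lay on 1 slide, and the software marked replicate 4 for evaluation. Over the 7937 named genes whose brightest probe was detected on all arrays, replicates 1 and 3 (r = 0.996) and replicates 2 and 4 (r = 0.992) read most alike, against 0.967 to 0.970 for the other 4 pairs. These correlations are across genes, which are not independent replicates. Of 17 measured macrophage markers 15 (88.2%) were detected on all arrays, beside 47.9% of all named genes, and Marco and Adgre1 were detected on none. Detection on all arrays also held for 3 of 5 markers of endothelium, 4 of 8 of natural killer and T cells and 3 of 6 of dendritic cells. For platelets it was 2 of 4, for B cells 1 of 3, for fibroblasts 1 of 4 and for neutrophils 1 of 6. For epithelium it was 0 of 5 and for mast cells, basophils and eosinophils 0 of 4. Cell identity was not tested.

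The exposed cells contained transcripts of 12 of the 30 Clec genes on every array. These were Clec7a, Clec5a and Clec9a among the activating receptors, Clec12a, Clec4a, Clec4a1, Clec4a2 and Clec4a3 among the inhibitory receptors and their relatives, and Clec2d, Clec2dl1, Clec2d2l3 and Clec2g of the Clec2 family. A further 7 genes were detected on 1 to 3 arrays and 11 on none. Detection on all arrays thus held for 40.0% of the Clec genes, beside 47.9% of all named genes, and detection on no array was found for 40.4% of all named genes. On single arrays the count of detected Clec genes was 17, 16, 15 and 12 on replicates 1 to 4. That was 56.7%, 53.3%, 50.0% and 40.0% of them, beside 54.4%, 52.1%, 53.3% and 50.6% of all named genes. The plot of levels by role shows that the sugar-binding, vessel and secreted members have no gene detected on all arrays.

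**Figure D1:**
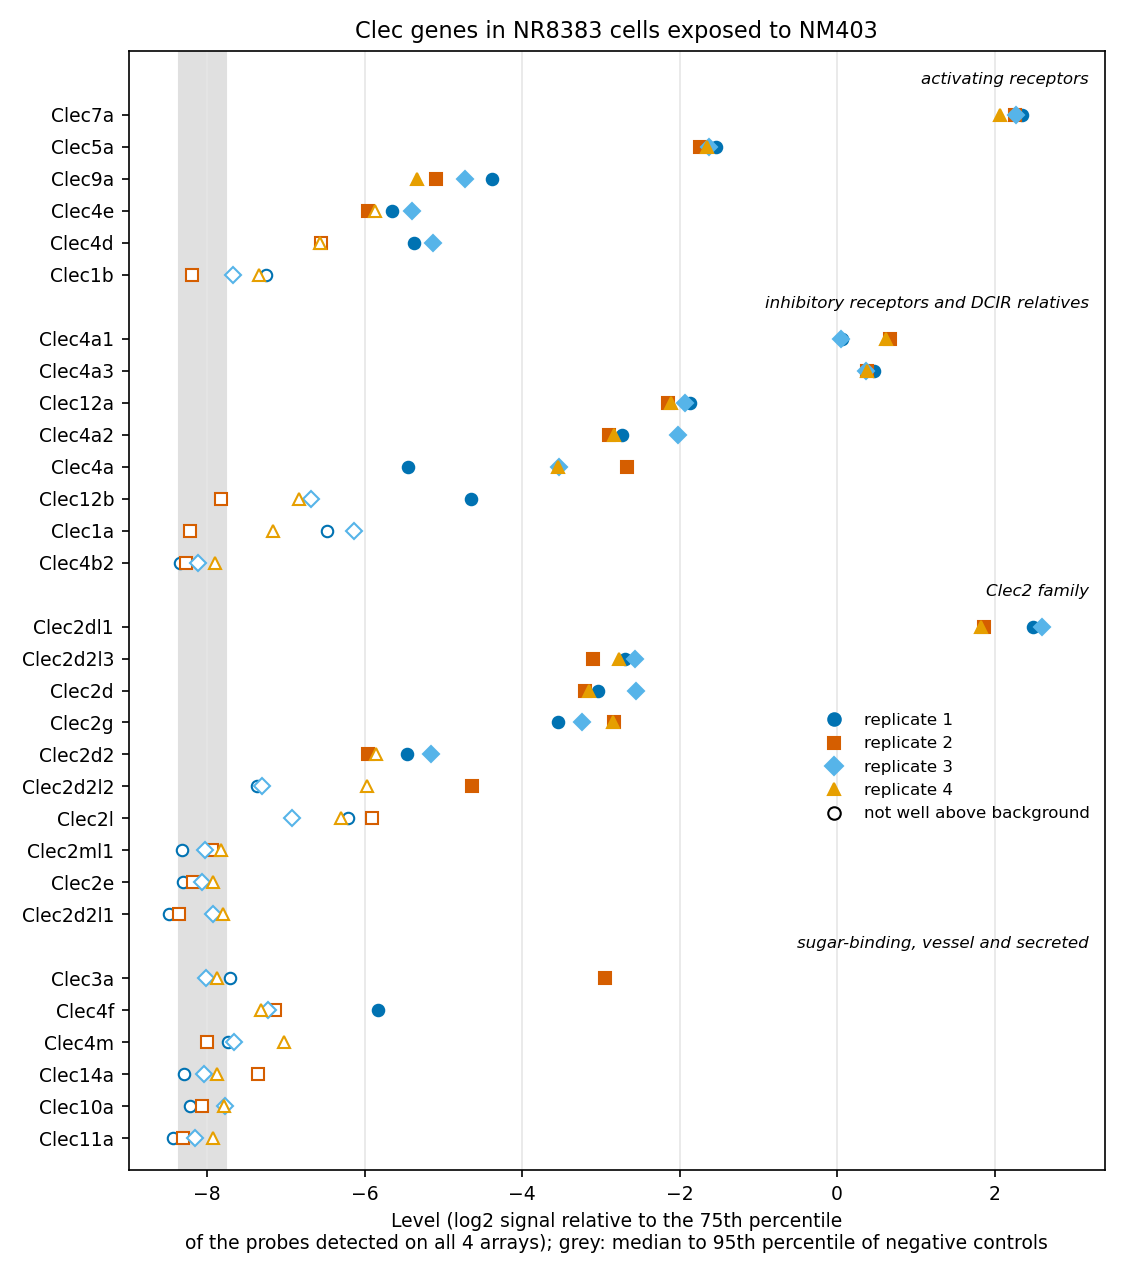
Level of each of the 30 Clec genes on each of the 4 arrays (x axis, log2 signal, scaled as described above), grouped by role. Filled symbols are readings well above background, open symbols are not, and the grey band runs from the lowest median to the highest 95th percentile of the negative control spots of the 4 arrays; 12 genes have 4 filled symbols and 11 have none.

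Of the 6 activating receptors, 3 were detected on all arrays, 2 on some and 1 on none. Among all named genes, 47.9% were detected on all arrays and 40.4% on none. No difference between a role and all genes was tested. Clec7a encodes Dectin-1, the receptor for fungal beta-glucan, whose own tail motif recruits Syk. It read 2.35, 2.27, 2.28 and 2.07 on replicates 1 to 4 (mean 2.24 ± 0.12, SD, n = 4). The 4 cultures lay within a 1.21-fold range, with replicate 4 lowest, and the SD was 0.0434 without replicate 4. The range was 1.30-fold with the 75th percentile and 1.40-fold with the median of all non-control probes, where replicate 3 was lowest, and 1.43-fold with quantile normalization. On replicate 4 the 2 spots of the probe read 2.23 and 1.90, and on the other arrays its 2 spots lay closer together. The second Clec7a probe, also detected on all arrays, read 1.26, 1.04, 1.31 and 1.14 and had a like SD of 0.12.

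Clec5a encodes MDL-1, a receptor of myeloid cells that pairs with DAP12. It read -1.53, -1.74, -1.63 and -1.65 on replicates 1 to 4 (mean -1.64 ± 0.09, SD, n = 4), a 1.16-fold range. With the 75th percentile or the median of all non-control probes the range was 1.28-fold or 1.30-fold. Clec9a encodes DNGR-1, a receptor for the actin of dead cells that marks a class of dendritic cells. Its brighter probe read -4.38, -5.10, -4.73 and -5.34 (SD 0.42, n = 4), highest on replicate 1 and lowest on replicate 4. Its range was 1.94-fold, against 1.45-fold with quantile normalization and also with normexp, where replicate 2 was lowest. The other Clec9a probe was undetected on every array, where it read between -8.50 and -7.00, so detection of this gene rests on 1 of 2 probes. Of 6 measured dendritic cell markers that were listed apart from Clec9a, Batf3, Irf4 and Itgae were detected on all arrays and Xcr1, Zbtb46 and Ccr7 on none. The part of such cells in the Clec9a reading was not tested.

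Clec4d and Clec4e, which encode MCL and Mincle, are receptors for mycobacterial glycolipids that pair with each other and with FcR gamma. Both read close to the limit of detection. Clec4e read -5.65, -5.95, -5.40 and -5.86 on replicates 1 to 4 and was detected on replicates 1, 2 and 3. Clec4d read -5.37 and -5.13 on replicates 1 and 3, where it was detected, and -6.55 and -6.57 on replicates 2 and 4, where it was not. Its second probe followed the first on each array, with -5.58 and -5.19 on replicates 1 and 3 and -6.55 and -6.46 on replicates 2 and 4. The lowest level at which any probe was detected was -6.23, -6.07, -5.85 and -5.63 on replicates 1 to 4, so a dim gene had to read higher on replicate 4 to be called. Clec4e on replicate 4 lay below that array's limit while it lay above that of replicates 1, 2 and 3. Clec1b, which encodes the platelet receptor for podoplanin, was not detected on any array by either of its 2 probes.

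The group of inhibitory receptors and relatives of DCIR, in which Clec1a was also placed, has 8 genes. Of these, 5 were detected on all arrays, 1 on some and 2 on none. That was beside 47.9% of all named genes on all arrays and 40.4% on none. Clec4a encodes DCIR, which carries an inhibitory tail motif, and its relatives Clec4a1, Clec4a2 and Clec4a3 are products of gene duplication next to it. Probes for such close copies can share signal, so the readings of the 4 genes are uncertain as values of single genes. Clec4a1 read 0.07, 0.67, 0.04 and 0.63 on replicates 1 to 4 (mean 0.35 ± 0.34, SD, n = 4), with replicates 2 and 4 high and replicates 1 and 3 low, a 1.54-fold range that was 2.02-fold and 2.18-fold with the 75th percentile and the median of all non-control probes. Clec4a3 read 0.47, 0.38, 0.37 and 0.38 (mean 0.40 ± 0.05, SD, n = 4). Its range was 1.07-fold, and the SD was 0.00669 without replicate 1. The narrow range depended on the scaling: it was 1.32-fold and 1.43-fold with the 75th percentile and the median of all non-control probes and 1.12-fold with quantile normalization.

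Clec4a2 read -2.74, -2.90, -2.02 and -2.83 (SD 0.41, n = 4), and replicate 3 stood above the other cultures, with an SD of 0.0810 without it and a 1.84-fold range that was 1.48-fold with the median of all non-control probes. Clec4a itself read -5.46, -2.67, -3.53 and -3.55 on replicates 1 to 4 (SD 1.18, n = 4), a 6.90-fold range. It had more than 2-fold between the highest and lowest culture, as 1 of the 12 genes, beside 13.6% of all genes detected on all arrays. That count was 3 of 12 with scaling on the 75th percentile or on the median of all non-control probes, with Clec2g and Clec4a1 added, and 2 of 12 with quantile normalization, with Clec2g added. All genes then gave 18.5%, 23.4% and 13.3%. Clec4a had the widest range of the 12 under each of these scalings. It was the widest with normexp too, but there the range was 3.42-fold. The replicate 1 reading that sets the range was dim, at -5.46 beside a lowest detected level of -6.23 on that array. Replicate 1 was low and replicate 2 high, and the SD was 0.503 without replicate 1. The second Clec4a probe was undetected on every array and did not follow the first. It read -6.20, -6.79, -5.93 and -6.81, with replicates 1 and 3 higher than replicates 2 and 4, so the wide range rests on 1 probe.

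Clec12a encodes MICL, an inhibitory receptor that binds uric acid crystals. It read -1.87, -2.15, -1.93 and -2.10 on replicates 1 to 4 (mean -2.01 ± 0.14, SD, n = 4). Its range was 1.22-fold, against 1.06-fold with quantile normalization. Clec12b, a related inhibitory receptor gene, read -4.65 on replicate 1, where alone it was detected, and between -7.83 and -6.68 on the others. Clec1a, which encodes a receptor for fungal melanin, read between -8.22 and -6.14 and was not detected on any array. Clec4b2 was not detected on any array either.

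The Clec2 family had 10 measured genes, of which 4 were detected on all arrays, 2 on some and 4 on none. Beside this, 47.9% of all named genes were detected on all arrays and 40.4% on none. Several members are near copies of each other, and shared signal between their probes was not tested. Clec2dl1 read 2.49, 1.86, 2.60 and 1.83 on replicates 1 to 4 (mean 2.20 ± 0.41, SD, n = 4). Replicates 1 and 3 read high and replicates 2 and 4 low, a 1.71-fold range that was 1.31-fold with the 75th percentile of all non-control probes. On replicate 4 the 2 spots of this probe read 1.85 and 1.81, and on the other arrays they lay closer together. Its other probe was detected on all arrays too, under the scaling used here again with replicates 1 and 3 above replicates 2 and 4 and with a smaller 1.34-fold range, but its mean lay 4.82 lower on the log2 scale.

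Clec2d, in other species known as a ligand of an inhibitory receptor of natural killer cells, read -3.03, -3.20, -2.56 and -3.15 (SD 0.29, n = 4). Replicate 3 read high, and the SD was 0.0866 without it. The range was 1.56-fold, against 1.26-fold with the median of all non-control probes. Clec2d2l3 read -2.70, -3.10, -2.57 and -2.77 (SD 0.22, n = 4), with an SD of 0.102 without replicate 2, and its 1.44-fold range was 1.06-fold with the median of all non-control probes. Clec2g read -3.55, -2.83, -3.24 and -2.84 (SD 0.35, n = 4), and here replicates 2 and 4 were high, the reverse of Clec2dl1. Clec2d2 read -5.46, -5.96, -5.16 and -5.85 and was detected on replicates 1, 2 and 3. Clec2d2l2 was detected on replicate 2 alone, where its brightest probe read -4.64 against -7.37 to -5.98 on the others, and its other 2 probes were not detected on any array. Clec2e, Clec2l, Clec2ml1 and Clec2d2l1 were detected on none.

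Of the 6 remaining members none was detected on all arrays, beside 47.9% of all named genes. They include Clec10a, a galactose-binding receptor of macrophages, Clec4m, a relative of the dendritic cell receptor DC-SIGN, Clec14a of blood vessel endothelium and the secreted growth factor gene Clec11a, each of them detected on no array. Clec4f, the galactose receptor of liver macrophages, read -5.83 on replicate 1, where it was detected, and between -7.31 and -7.14 on the others. Clec3a, a gene of cartilage, was detected on replicate 2 with -2.95, while the others lay between -8.01 and -7.71. For the 11 genes detected on no array, levels ran from -8.49 to -5.90, and the median over them was -8.30, -8.18, -7.93 and -7.80 on replicates 1 to 4. The median of the negative control spots was -8.36, -8.22, -8.07 and -7.86 on the same arrays.

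Readings that stood on 1 array alone were set beside the spots around them. A spot was called raised where its signal was 4-fold or more above the median signal of the remaining arrays, with a floor of 50, which held for 0.362% of all spots on replicate 2 and 0.959% on replicate 1. Among the Clec spots only Clec3a on replicate 2 was raised, 6.52-fold with the floor, and 0 of the 24 spots within 2 rows and 2 columns of it were. Around the Clec12b and Clec4f spots 0 of 24 neighbours were raised on replicate 1. Their own signals there, 108 and 47.6, were too low to be called raised with this floor. The same held for the Clec2d2l2 signal of 101 on replicate 2. Neighbours with a rise of that size would be missed too, so 0 of 24 cannot show whether the Clec12b and Clec4f readings were local. Around the Clec2d2l2 spot 4 of 24 neighbours were raised on replicate 2, and their part in that reading was not tested.

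**Figure D2:**
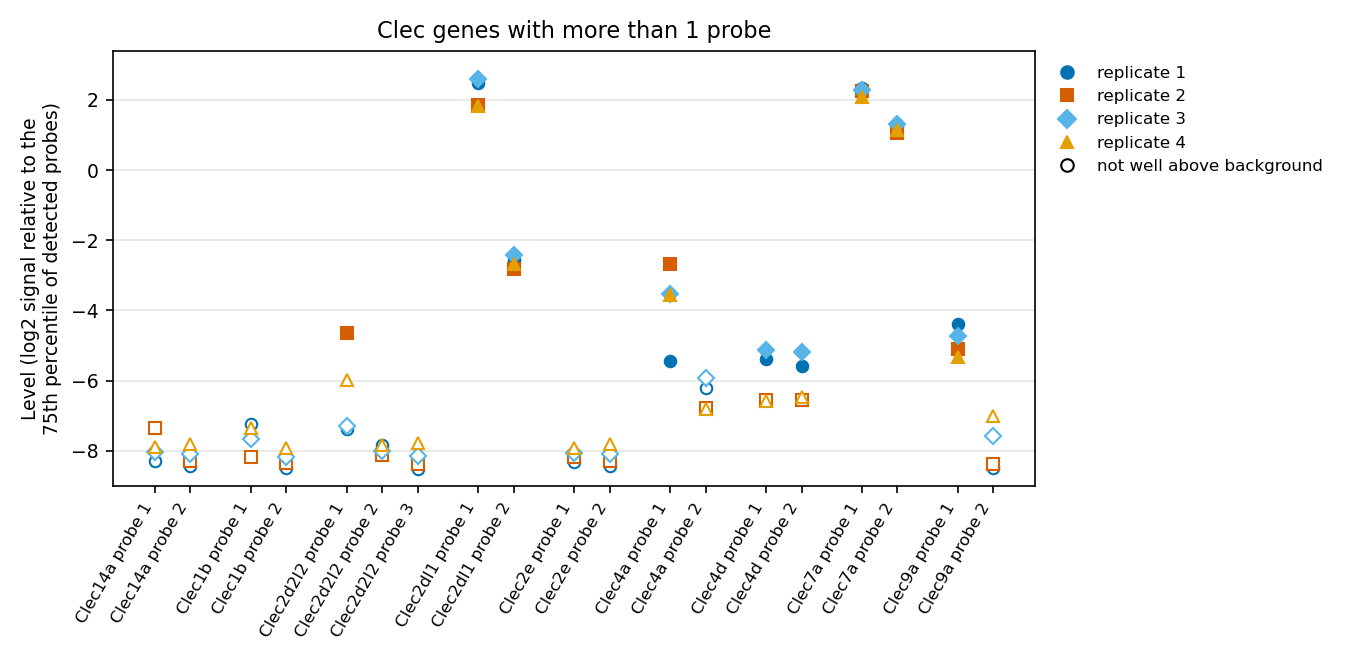
Level on each array (y axis, log2 signal, scaled as described above) of every probe of the 9 Clec genes that have more than 1, brightest probe first. Filled symbols are readings well above background; the paired probes of Clec7a, Clec2dl1 and Clec4d keep the same detection, while those of Clec4a, Clec9a and Clec2d2l2 do not.

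The plot of probes shows how far a gene's value rests on the probe chosen. Of 9 genes with several probes, Clec7a and Clec2dl1 had both probes detected on all arrays, and Clec4d had both detected on the same 2 arrays. For Clec4a, Clec9a and Clec2d2l2 only the brightest probe was detected at all. For Clec14a, Clec1b and Clec2e every probe was undetected on every array. The other 21 genes have 1 probe each and no such check.

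The spread over cultures differed from gene to gene among the 12 Clec genes detected on all arrays. Their median SD was 0.318, beside 0.234 for all 7937 genes, and 7 of the 12 lay above that median. The plot of spread against level shows Clec4a with an SD of 1.18 and, under this scaling alone among the 4 compared, Clec4a3 at the bottom with 0.05. Clec12a had the narrowest range with the 75th percentile of all non-control probes and with quantile normalization, and Clec2d2l3 with the median. The median SD depended on replicate 3, without which it was 0.182 beside 0.231 for all genes. It also depended on the scaling, and each of the other 3 scalings turned the order of the medians round. The Clec median was 0.196 beside 0.353 for all genes with the 75th percentile of all non-control probes, 0.24 beside 0.35 with their median and 0.232 beside 0.250 with quantile normalization.

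**Figure D3:**
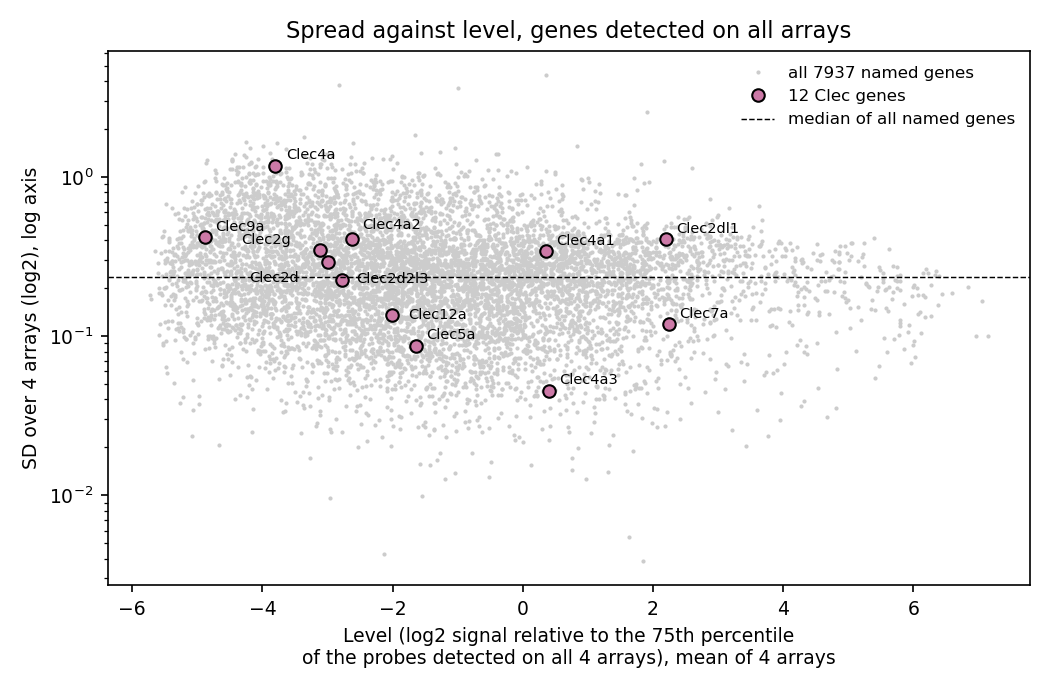
SD over the 4 arrays (y axis, log2 units on a log axis) against mean level (x axis, log2 signal, scaled as described above) of the 7937 named genes whose brightest probe was detected on all arrays, with the 12 Clec genes marked. The dashed line is the median SD of 0.234; Clec4a has the largest SD of the 12; Clec4a3 has the smallest here, but not with the other 3 scalings.

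The order of the cultures within a gene was then set beside that of all genes. Replicates 1 and 3 held the 2 highest readings for 8 of the 12 Clec genes, beside 34.5% of all genes, and replicates 2 and 4 for 2 of the 12, beside 47.2%. These 8 were Clec12a, Clec2d, Clec2d2l3, Clec2dl1, Clec4a2, Clec5a, Clec7a and Clec9a. This order changed with the scaling. The count for replicates 1 and 3 was 1 of 12 when arrays were scaled on the 75th percentile or on the median of all non-control probes, and 3 of 12 with quantile normalization. The median deviation of all genes then moved as well, for instance to -0.21, 0.23, -0.25 and 0.23 on replicates 1 to 4 with the 75th percentile of all probes, against -0.04, 0.04, -0.05 and 0.05 with the scaling used here. Under all 4 scalings Clec2dl1 read highest on replicates 1 and 3, and Clec4a1 and Clec2g read highest on replicates 2 and 4. The plot of deviations shows these 3 genes split by the same arrays in opposite directions.

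**Figure D4:**
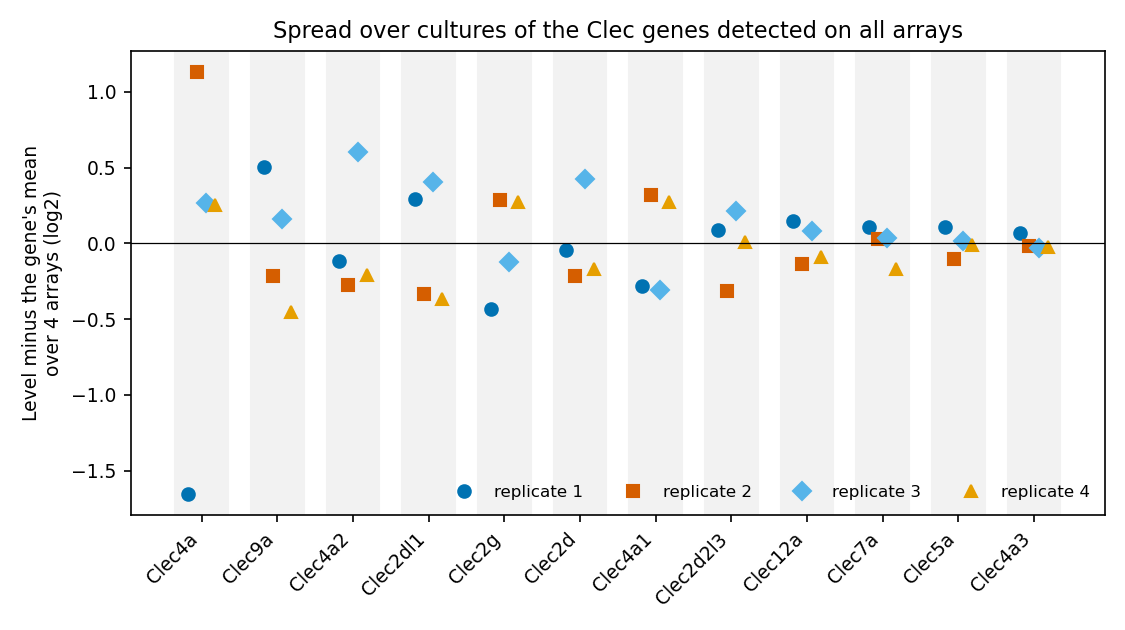
Level on each array minus the gene's mean over the 4 arrays (y axis, log2) for the 12 Clec genes detected on all arrays, ordered from the widest to the narrowest range (x axis). Replicates 1 and 3 lie above the mean for Clec2dl1 and below it for Clec4a1 and Clec2g under the scaling used here.

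For the 3 Clec genes with the widest range under the scaling used here, the named genes with the nearest profile over the 4 arrays were sought among genes detected on all arrays with at least 50% of that range. Likeness was the root mean square difference of the deviations from each gene's own mean. For Clec4a the nearest were Slc39a5 (0.53) and LOC102552293 (0.54) among 492 candidates. For Clec9a they were Leo1 (0.04) and Zfp472 (0.04) among 4028, and for Clec4a2 they were Smim11 (0.05) and Zkscan5 (0.06) among 4402. The difference is not divided by a gene's range, and Clec4a had the widest range and the fewest candidates. These values therefore cannot compare how closely the 3 genes were followed.

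In the gene table, 22 of the 30 measured Clec genes fall into 3 stretches of chromosome 4 where Clec genes lie next to each other or nearly so. Only Cd69 lies between Clec2g and Clec2ml1 in the order of protein-coding genes, so the split at that point is a choice. Within each stretch detection differed between some neighbours. Beside the counts below, 47.9% of all named genes were detected on all arrays and 40.4% on none. No difference between a stretch and all genes was tested. The stretch from Clec4a1 to Clec4e holds 7 genes, 4 of them found on all arrays, 2 on some and 1 on none. The first 4 in order, Clec4a1, Clec4a3, Clec4a2 and Clec4a, were detected on all arrays, the next, Clec4b2, on none, and Clec4d and Clec4e lay at the limit. The stretch from Clec2d2l3 to Clec2g holds 8 measured genes, 4 of them found on all arrays, 2 on some and 2 on none. In the stretch from Clec2ml1 to Clec7a, 3 of 7 were detected on all, 1 on some and 3 on none, with Clec7a next to the undetected Clec1a. Outside these stretches 1 of 8 genes, Clec5a, was detected on all arrays. The plot of levels in gene order shows the steps.

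**Figure D5:**
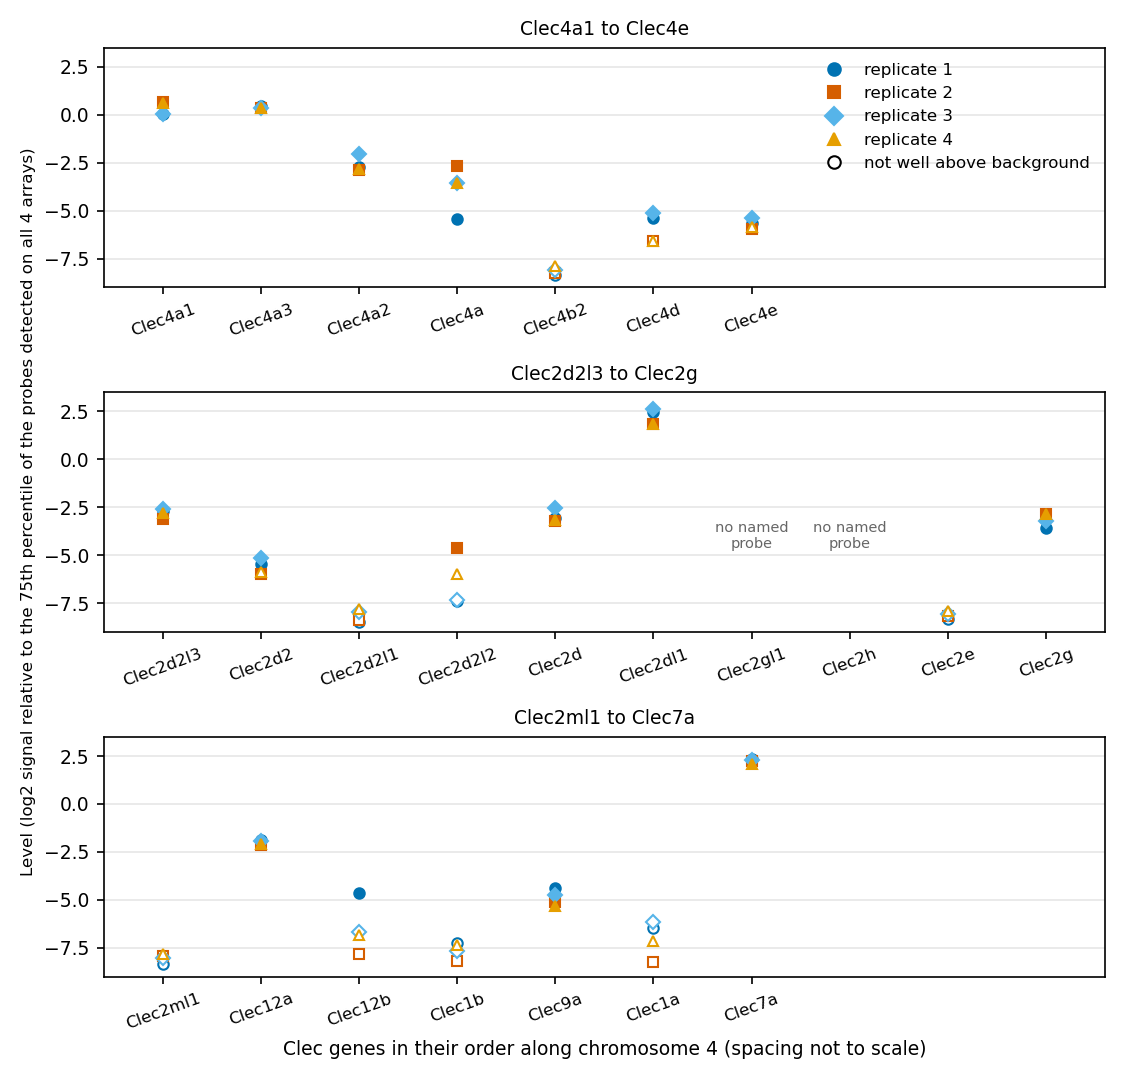
Level on each array (y axis, log2 signal, scaled as described above) of the Clec genes of 3 stretches of chromosome 4, in their order in the gene table (x axis, spacing not to scale, other genes left out). Filled symbols are readings well above background; Clec4b2 and Clec1a lie between detected neighbours and have none.

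Promoters of 6 genes from the stretches Clec4a1 to Clec4e and Clec2ml1 to Clec7a are shown. No detected gene among them lies directly beside an undetected one that is shown. The sequences are from RefSeq on build GRCr8, 250 bases before to 50 bases after the gene's start, read 5′ to 3′ on the gene's strand. Capitals mark GAGGAA or its reverse complement TTCCTC, the core of many sites of PU.1, the lineage factor of macrophages, whose gene Spi1 was detected on all arrays. Clec4a1 (chr4:157845561-157845860, plus strand), Clec4a3 (chr4:157886508-157886807, plus strand) and Clec12a (chr4:164483912-164484211, plus strand) were detected on all arrays, as was Clec7a (chr4:164599778-164600077, minus strand). Clec4b2 (chr4:158148184-158148483, plus strand) was detected on none and Clec4e (chr4:158298418-158298717, minus strand) on 3.
Clec4a1: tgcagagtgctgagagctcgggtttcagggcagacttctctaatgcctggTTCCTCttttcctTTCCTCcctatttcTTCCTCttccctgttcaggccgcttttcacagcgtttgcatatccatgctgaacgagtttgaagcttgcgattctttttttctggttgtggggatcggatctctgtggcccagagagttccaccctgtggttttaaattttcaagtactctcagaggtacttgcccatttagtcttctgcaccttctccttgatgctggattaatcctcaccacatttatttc
Clec4a3: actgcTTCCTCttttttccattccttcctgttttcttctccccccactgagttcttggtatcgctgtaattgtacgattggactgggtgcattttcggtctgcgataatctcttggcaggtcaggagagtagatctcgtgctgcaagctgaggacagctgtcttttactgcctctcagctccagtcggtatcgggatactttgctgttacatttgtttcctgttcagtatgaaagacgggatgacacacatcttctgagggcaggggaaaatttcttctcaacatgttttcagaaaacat
Clec4b2: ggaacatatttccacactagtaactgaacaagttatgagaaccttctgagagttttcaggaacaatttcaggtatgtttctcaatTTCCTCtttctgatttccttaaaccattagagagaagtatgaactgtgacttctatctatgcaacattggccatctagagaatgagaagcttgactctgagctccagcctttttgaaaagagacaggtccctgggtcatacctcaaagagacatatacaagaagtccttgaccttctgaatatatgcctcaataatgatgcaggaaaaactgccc
Clec4e: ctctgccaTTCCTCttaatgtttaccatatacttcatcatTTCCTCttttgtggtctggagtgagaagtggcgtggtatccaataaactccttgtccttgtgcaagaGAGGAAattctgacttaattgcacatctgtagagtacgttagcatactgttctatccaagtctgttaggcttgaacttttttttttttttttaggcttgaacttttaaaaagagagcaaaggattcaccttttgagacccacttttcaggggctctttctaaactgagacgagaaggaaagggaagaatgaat
Clec12a: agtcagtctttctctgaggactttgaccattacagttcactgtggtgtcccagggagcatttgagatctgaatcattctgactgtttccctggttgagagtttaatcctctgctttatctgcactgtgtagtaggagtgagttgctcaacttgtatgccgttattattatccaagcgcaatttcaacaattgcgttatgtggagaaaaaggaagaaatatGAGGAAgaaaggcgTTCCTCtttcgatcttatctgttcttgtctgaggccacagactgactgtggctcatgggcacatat
Clec7a: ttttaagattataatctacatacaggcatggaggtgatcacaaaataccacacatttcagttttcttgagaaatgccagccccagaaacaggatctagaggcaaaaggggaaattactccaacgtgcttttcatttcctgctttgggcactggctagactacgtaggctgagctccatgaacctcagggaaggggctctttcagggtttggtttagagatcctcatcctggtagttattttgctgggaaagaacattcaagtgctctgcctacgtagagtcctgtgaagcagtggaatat

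The core was found in 27.6% of the 33469 promoters of that length in the table and in 9 of the 25 measured Clec genes that have one there. In the stretch from Clec4a1 to Clec4e it was found in 6 of 7 promoters, among them that of the undetected Clec4b2, and Clec7a had none in this window. It was found in 4 of 11 promoters of Clec genes detected on all arrays and in 3 of 9 of those detected on none. The letters TGANTCA of AP-1, searched on both strands, were in 2 of the 25 (7.33% of all promoters), those of C/EBP (TTGCNNAA) in 6 of the 25 (10.6%) and an NF-kB motif in 0 of the 25 (1.53%). No match of 1 motif overlapped a match of another in the 6 promoters shown. A match is a description of letters and not a binding site. The measured genes Clec10a, Clec1a, Clec2d2, Clec2d2l3 and Clec3a were not among those searched.

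Most of the listed genes that carry signals from these receptors were detected. Detection on all arrays held for 34 of 39 measured C-type lectin signalling genes (87.2%), beside 47.9% of all named genes, and on some arrays for 3. Detection on none held for 2, Src and Blnk, beside 40.4% of all named genes. Fcer1g, the FcR gamma chain, had a level of 4.12 ± 0.23, and Tyrobp, which encodes DAP12, of 5.19 ± 0.24 (SD, n = 4 for each level here). The kinase gene Syk had a level of -0.35 ± 0.13, the adaptor Card9 of -0.10 ± 0.12 and its partner Bcl10 of -0.76 ± 0.19. Plcg2, the phospholipase downstream of Syk, had a level of -1.50 ± 0.21. The phosphatase genes of the inhibitory arm were detected too, with Ptpn6, which encodes SHP-1, at 4.04 ± 0.35 and Inpp5d, which encodes SHIP-1, at -0.09 ± 0.21. Malt1, the third member of the Card9 complex, was among 5 listed genes with no named probe. Like Clec4a1, both adaptor chains read higher on replicates 2 and 4 under the scaling used here: Fcer1g read 3.89, 4.28, 3.98 and 4.35 on replicates 1 to 4.

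C-type lectin genes that carry other names were measured too. All arrays detected 4 of 53 measured genes (7.55%), beside 47.9% of all named genes. Of the 53, 1 was found on some arrays and 48 on none, beside 40.4% of all named genes on none. The 4 were Mrc1, the mannose receptor of macrophages, its relative Mrc2, the endocytic receptor gene Cd302 and Olr1, a receptor for oxidised lipoprotein that lies beside Clec7a. Olr1 read -2.24, -2.95, -2.13 and -2.67 on replicates 1 to 4, higher on replicates 1 and 3 under the scaling used here. Thbd, which encodes thrombomodulin, was detected on 3 arrays when both of its 2 probes were counted, but its brighter probe was detected on 2. The list holds the lectin-like receptors of natural killer cells, collectins and selectins, and none of their measured genes was detected.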

How the data were processed

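Per the submitters' processing notes, the arrays were read with Agilent Feature Extraction 11.0.1.1. The deposited intensity of each spot is background-subtracted and detrended within its array, with no normalization between arrays, per the file headers, and the array design names rat build rn4. The deposited flags (other columns) gave detection, outliers and saturation. Control spots and flagged outliers (623 to 1016 per array) were left out, and saturation was found on none. Repeat spots were averaged as log2 values, and a repeated probe counted as detected where more than 50% of its spots were. Because 34.2% of the 45598 probes were detected on all arrays, each array was scaled on the 75th percentile of those probes. Accessions matched 1 symbol for 21109 probes (46.3%) and none for 24489; the gene table's build differs from that of the array. There was 1 group, so no test between groups was run. The functions were tested on simulated data. The members, gene lists and roles were chosen with earlier results of these data known. Roles planned for Clec4a3 and Clec4b2 as activating receptors were not certain in the rat, so these genes are described with the relatives of DCIR. Named genes were all members, a fixed set of signalling genes and the nearest profiles; further genes were picked as examples with their values known. Alternatives were other detection rules, other scalings, normexp with an offset of 50 (limma 3.58.1) on the median spot signal, since the planned mean spot signal was not used here, other probe rules and leaving out each replicate. The look at spots around a reading and at the order of the cultures by scaling was chosen after seeing the data. Other tools were Python 3.11.15, numpy 2.4.6 and pandas 2.3.3.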

Additional observations from a re-analysis of the deposited data

Results flagged for a closer look

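Dixon's criterion for a sample far from the other 3 was applied to the 22 Clec probes detected on at least 1 array, and 3 of them met it. For unselected and independent readings chance gives about 1 in 20, but that rate does not hold here. Clec3a and Clec4f were among the 22 only through the 1 array where they read high. Some genes also have more than 1 probe among the 22. The 3 are therefore given as descriptions. On replicate 2 Clec3a read -2.95, and it ran from -8.01 to -7.71 on the other arrays, where it was not well above background. On replicate 1 Clec4f read -5.83, where alone it was detected, and it ran from -7.31 to -7.14 on the others. For Clec4a3 the reading was 0.47 on replicate 1 and 0.37 to 0.38 on the others, and its fold range over the arrays was at the 2.68th percentile of all genes detected on all arrays. With the 75th percentile or the median of all non-control probes in the scaling, that range was at the 20.1st or the 24.1st percentile, and replicate 1 was no longer highest.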

How the results depend on the processing

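With a probe called present where its signal was positive and significant against background, 20 Clec genes were detected on all arrays and 2 on none, in place of 12 and 11, and 9 in place of 4 C-type lectin genes with other names were detected on all. The share of all named genes was not counted under this rule or the other rules below. Whether these counts moved more than those of all genes was therefore not tested. Where every probe of a gene had to be detected, the Clec counts were 10 and 14. Leaving out 1 replicate gave 12 to 14 Clec genes on all remaining arrays and 11 to 13 on none, 34 signalling genes on all, and 4 to 5 of the genes with other names. The median SD of the Clec genes, 0.318, was 0.182 to 0.339 with 1 replicate left out, the lowest without replicate 3. It was 0.196 with scaling on the 75th percentile of all non-control probes and between 0.232 and 0.318 with the other scalings, normexp and the other rules for probes. The level of all 12 genes moved by more than its SD with scaling on all non-control probes, which changes the zero, and of 0 with quantile normalization. The range over arrays moved by more than the SD for 4 of the 12 with the 75th percentile, 6 with the median, 5 with quantile normalization and 2 with normexp. No paired analysis was possible because there is 1 group. Signal near background limits Clec4d, Clec4e, Clec2d2 and Clec9a, and Clec4a on replicate 1.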
